A study of Homo sapiens with 58 samples.

Results

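The peaks described here are those of 6 genes of cholesterol and lipid synthesis in a survey of the RNA sites bound by HuR, an RNA-binding protein encoded by ELAVL1. They were chosen as every peak that the deposited peak table names HMGCS1, INSIG1, SQLE, SCD, FDFT1 or SREBF2, which gave 245 of 387214 peaks. HuR was immunoprecipitated with the RNA crosslinked to it (CLIP-seq) from Huh-7.5 cells, which derive from a human liver cancer, in 58 libraries. The cells received a mock treatment or sodium arsenite, at 0.5 mM and for 45 min, an oxidative stress that induces stress granules, before they were crosslinked with UV doses of 400 and 200 mJ/cm2. Wild-type cells gave nuclear and cytoplasmic fractions, with 3 libraries for each fraction and treatment. The other libraries came from lines that carry APEX, a peroxidase that biotinylates what lies near it when given biotin phenol and hydrogen peroxide. APEX was directed to the nucleus (APEX-NLS), to the cytoplasm (APEX-NES) or, by fusion to G3BP1, to a protein of stress granules (APEX-G3BP1). Enriched libraries had a streptavidin capture in addition to the HuR immunoprecipitation, and input libraries did not. Each treatment of APEX-NLS and of APEX-NES has 2 libraries of input and 4 enriched ones. For APEX-G3BP1 the input libraries number 4 (mock) and 5 (arsenite), and the enriched libraries 6 and 7.

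Cells make cholesterol from acetyl-CoA through the mevalonate pathway, in which HMGCS1 makes HMG-CoA, FDFT1 makes squalene and SQLE oxidises it on the way to lanosterol. SCD is the desaturase that turns saturated into monounsaturated fatty acids. SREBF2 encodes SREBP-2, the transcription factor that switches these genes on when sterols run low, and INSIG1 encodes the membrane protein that holds SREBP precursors in the endoplasmic reticulum when sterols are plentiful. HuR binds U-rich and AU-rich stretches in introns and 3'UTRs, shuttles between nucleus and cytoplasm, and is known for stabilising bound mRNAs.

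The fraction libraries held 235471 to 673322 tags (sequenced crosslinked fragments) in peaks, the input libraries 1353 to 484305 and the enriched libraries 519 to 86419. The fraction libraries are all of one library set, JL0380, so their levels are compared only with one another. The labels do not say that replicate libraries came from separate cultures, so p-values measure the spread between these libraries, which may be technical. Of 8 hepatocyte genes set down as a check of the cell line, 6 had peaks, with 22863 tags, AFP leading with 13735. Both endothelial genes checked had peaks with 10 tags, 1 of 2 leukocyte genes had peaks with 55, and neither fibroblast gene had a peak. Of the nuclear RNAs, NEAT1 had 413 ± 27.7 CPM (tags per 1000000 tags of the library; SD, n = 3) in mock nuclei and 125 ± 11.6 in mock cytoplasm, and 539 ± 95.8 and 232 ± 42.2 with arsenite. MALAT1 had 2561 ± 198 and 2394 ± 286 in mock, and 2903 ± 332 and 2838 ± 451 with arsenite, differences within the spread. CLIP signal follows the amount of an RNA as well as its binding, and no RNA abundance was measured alongside. Fewer cells, less RNA per cell and less binding cannot be told apart in any of the values below.

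HMGCS1 (ENSG00000112972, chr5:43287470-43313412 on the minus strand) held 80 peaks, SREBF2 (ENSG00000198911, chr22:41833105-41907305) 60, FDFT1 (ENSG00000079459, chr8:11795582-11839298) 34, SQLE (ENSG00000104549, chr8:124998505-125022283) 33, INSIG1 (ENSG00000186480, chr7:155297878-155310235) 25 and SCD (ENSG00000099194, chr10:100347233-100364826) 13. Gene positions are those of RefSeq on GRCh38.p14, which is also the build of the peaks. In the table's annotation 50 of the peaks lay in 3'UTRs, 169 in introns, 8 in coding sequence, 1 in a 5'UTR, 9 in transposable elements and 8 in other classes. Of 25571 tags at the 6 genes, HMGCS1 took 49.5% and SCD 36.2%, so these genes carry most of the depth, while INSIG1 had 1106 tags over all libraries, SREBF2 873, FDFT1 848 and SQLE 824.

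The genes differed in how their 3'UTR signal was laid out. SCD had 8 3'UTR peaks from 13 to 3710 nt before its annotated 3' end. One of them, at chr10:100364131-100364151 and 675 nt from the end, held 7400 tags and 79.3% of the 3'UTR signal in the fraction libraries. By its mean over those libraries it ranked 15th of 387214 peaks, all 20 nt long, and 9th of 37614 3'UTR peaks. HMGCS1 had 13 3'UTR peaks between 1089 and 3520 nt from its 3' end. The peak at chr5:43290073-43290093 held 4497 tags and 65.7% of them, and ranked 34th of all peaks and 23rd among those in 3'UTRs. INSIG1 had 14 3'UTR peaks within 1868 nt, and no peak as dominant: the leading one, at chr7:155309562-155309582, held 23.3%.

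The remaining genes had little 3'UTR signal. FDFT1 had 6 peaks annotated as 3'UTR, of which that at chr8:11838701-11838721 held 66.2%. These peaks span 29288 nt of the gene, so they do not lie in one contiguous 3'UTR near its end. SREBF2 had 7 3'UTR peaks with 98 tags in all and SQLE 2 with 79. The leading peaks of SQLE (chr8:125005135-125005155) and SREBF2 (chr22:41842137-41842157) were in introns, with 174 and 55 tags. In HMGCS1, 58 of 66 intron peaks carried the finer label CDS_Retained_intron. The table does not define it; its name joins coding sequence and retained introns, and HMGCS1 has no peak in the coding class, so "intron" below may include exonic sequence.

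**Figure D1:**
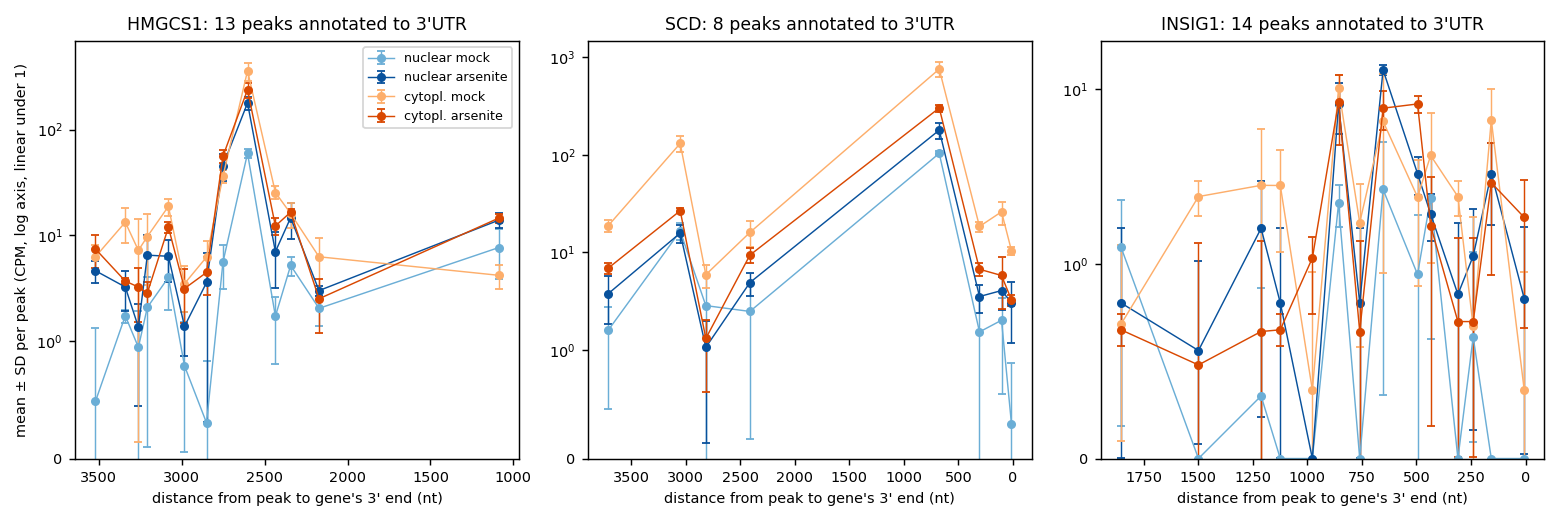
Mean CPM of each 3'UTR peak (dots; bars are the SD, n = 3 libraries per group) against its distance from the annotated 3' end of the gene in nt, for HMGCS1 (13 peaks), SCD (8 peaks) and INSIG1 (14 peaks) in the nuclear and cytoplasmic fractions of mock and arsenite-treated cells. The y axis is logarithmic, and linear under 1 CPM. SCD and HMGCS1 each have a peak far above their others, while INSIG1 has none.

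In mock-treated cells the 3'UTR signal of all 6 genes was lower in the nuclear than in the cytoplasmic fraction, and that of HMGCS1 introns was higher. The values below are sums over all peaks of a gene in one annotation class. The SCD 3'UTR had 124, 127 and 142 CPM in the nuclear libraries and 793, 1039 and 1113 in the cytoplasmic libraries. The HMGCS1 3'UTR had 85.0, 93.6 and 97.6 CPM in the nuclear libraries and 401, 564 and 573 in the cytoplasmic ones. The groups lie far apart for both genes. On the log2(CPM + 2.28) scale the nuclear minus cytoplasmic difference was -2.87 ± 0.14 (SE) for SCD (limma adjusted p 2.67e-08) and -2.43 ± 0.16 for HMGCS1 (limma adjusted p 1.37e-07).

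INSIG1 3'UTR signal was 8.69, 10.9 and 11.7 CPM in the nuclear and 36.2, 46.4 and 49.9 in the cytoplasmic libraries, a difference of -1.87 ± 0.23 (limma adjusted p 3.82e-05). FDFT1 3'UTR signal was 3.64, 5.83 and 8.69 CPM against 23.4, 24.3 and 29.8, a difference of -1.79 ± 0.29 (limma adjusted p 3.80e-04). These groups did not overlap either, and the calls of these 4 genes held when any library was left out. SQLE, with 5 nuclear and 24 cytoplasmic 3'UTR tags, differed by -1.50 ± 0.45 (limma adjusted p 0.0219), and SREBF2, with 8 and 27 tags, by -1.39 ± 0.43 (limma adjusted p 0.0268). Both rest on few tags. SQLE lost its call without cytoplasmic mock library 1 or 2 or nuclear mock library 1 or 2 (adjusted p 0.0865 to 0.18). SREBF2 lost it without any cytoplasmic mock library or nuclear mock library 1 (0.0984 to 0.16), and with the smaller pseudocount (0.0607).

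Lower 3'UTR signal in the nucleus was common. Of all 3'UTR sums tested, 49.4% were called lower, with a median of -0.98, and all 6 genes lie below that median. Over all classes 16.2% of sums were lower and 12.8% higher, against 6 and 2 of 19 for these genes; without cytoplasmic mock library 2 or 3 limma called 5 in all, and without nuclear mock library 1 it called 4. The 2 higher sums were introns. HMGCS1 introns had 190.2, 205 and 213 CPM in the nuclear and 128, 139 and 154 in the cytoplasmic libraries, a difference of 0.53 ± 0.14 (limma adjusted p 0.0111), smaller than that of its 3'UTR and of opposite sign. SREBF2 introns differed by 0.71 ± 0.24 (limma adjusted p 0.0407). Of all intron sums 25.1% were higher in the nucleus. The HMGCS1 intron call was lost without cytoplasmic mock library 3 or nuclear mock library 1 or 2 (adjusted p 0.0539 to 0.0667), and that of SREBF2 without any one of 5 of the 6 libraries (0.0678 to 0.167). INSIG1 introns, at 13.9 ± 3.13 and 7.29 ± 1.62 CPM (SD, n = 3), did not pass the test (difference 0.76, limma adjusted p 0.0616), nor did those of SQLE, FDFT1 and SCD. INSIG1 introns passed when scaled to tags in peaks, centred, or fitted over all 12 fraction libraries (limma adjusted p 0.00940 to 0.0326). SQLE introns passed only in the fit over all 12 fraction libraries (limma adjusted p 0.0404).

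Single peaks in mock cells pointed the same way. Of 158 tested peaks of the 6 genes, 17 were lower in the nucleus and 0 higher, where 2.29% of all peaks tested were lower and 0.53% higher. Among 3'UTR peaks 13.1% were lower, with a median of -0.59. All 17 were 3'UTR peaks: 7 each in HMGCS1 and SCD, 2 in INSIG1 and 1 in FDFT1. Of 40 tested 3'UTR peaks, 37 had a negative difference. Any peak without a tag in mock nuclei, as at some INSIG1 peaks, could enter only through cytoplasmic tags and only be negative. The count of signs is therefore no support of its own. The leading SCD peak had 97.6, 106 and 106 CPM in the nuclear and 614, 792 and 861 in the cytoplasmic libraries (difference -2.83 ± 0.13, limma adjusted p 3.08e-05). The leading HMGCS1 peak had 53.1, 60.0 and 65.6 against 279, 398 and 402 (difference -2.53 ± 0.17, limma adjusted p 1.47e-04). A further HMGCS1 peak, at chr5:43289905-43289925, had at most 2.73 CPM in any nuclear and at least 21.3 in every cytoplasmic library (difference -2.81, limma adjusted p 0.00134). Without cytoplasmic mock library 2 these 3 peaks lost their calls (adjusted p 0.0702 to 0.0753), as the last did without cytoplasmic mock library 3. Of the 17 calls, 4 were made without cytoplasmic mock library 1, 0 without library 2 and 3 without library 3, and 6 and 5 without nuclear mock library 2 and 3.

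At the INSIG1 peak chr7:155310058-155310078 no nuclear mock library had a tag, while the cytoplasmic libraries had 3.06, 7.45 and 9.49 CPM. Against a floor of 3 tags over the nuclear group the nuclear signal was at least 6.23-fold lower. This peak is among the 17, but it entered the test only through its cytoplasmic tags, so its call supports nothing. At the leading FDFT1 peak the nuclear libraries had 3.64, 4.37 and 5.79 CPM and the cytoplasmic ones 18.3, 21.1 and 25.5 (difference -1.80, limma adjusted p 0.00937, kept only without nuclear mock library 1 and otherwise 0.0753 to 0.123).

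**Figure D2:**
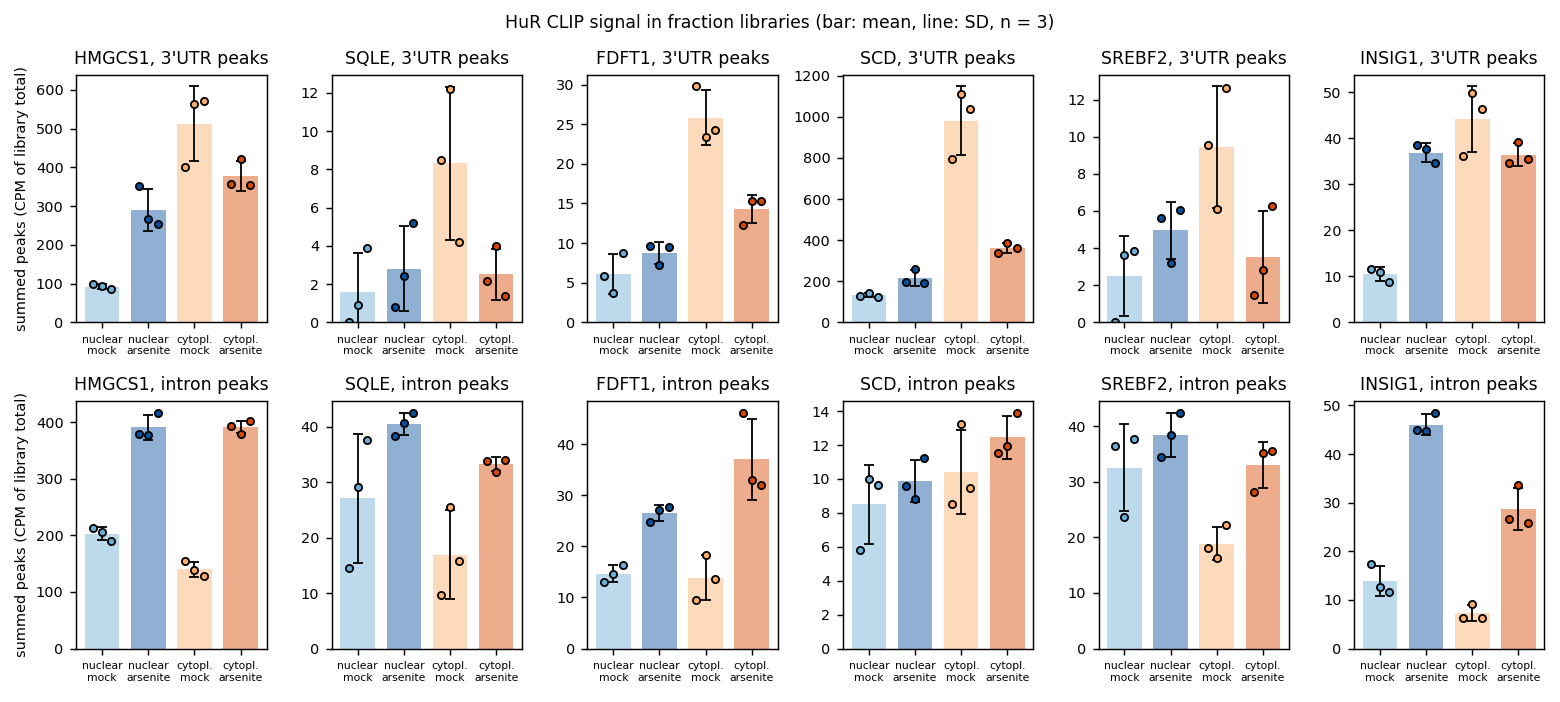
CPM of the summed 3'UTR peaks and summed intron peaks of each of the 6 genes in the 12 fraction libraries (dots are libraries, bars the mean and lines the SD, n = 3), for nuclear and cytoplasmic fractions, mock and arsenite. In mock cells the cytoplasmic 3'UTR dots of SCD (793 to 1113 CPM) lie above the nuclear ones (124 to 142 CPM); with arsenite the 2 fractions lie closer (191 to 258 and 336 to 388 CPM).

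Arsenite changed the cytoplasmic signal in opposite directions by class: introns of 5 of the 6 genes rose, and the 3'UTRs of SCD and FDFT1 fell. SCD 3'UTR signal went from 793, 1039 and 1113 CPM in mock to 336, 360.3 and 388 in arsenite cytoplasm, a difference of -1.42 ± 0.15 (limma adjusted p 1.21e-05) that kept its call without any library. FDFT1 3'UTR signal went from 23.4, 24.3 and 29.8 to 12.3, 15.3 and 15.3 CPM (difference -0.76 ± 0.22, limma adjusted p 0.0302), but the call was lost without any one library (0.071 to 0.134). In both genes the treatments do not overlap. HMGCS1 3'UTR signal, 401, 564 and 573 CPM in mock and 353, 356 and 421 in arsenite, overlapped between the treatments and did not pass (difference -0.43 ± 0.16, limma adjusted p 0.0847). It passed without cytoplasmic mock library 1 (0.00427), when each library was centred on its median (0.0276) and in a fit over all 12 fraction libraries (0.0135). INSIG1 3'UTR signal differed by -0.25 (limma adjusted p 0.428). SQLE and SREBF2 3'UTRs, with 12 and 16 tags in arsenite, differed by -1.10 and -1.06 (limma adjusted p 0.0589 and 0.0623). Both passed with no filter on low values, when centred on the median and in edgeR (0.0262 to 0.0449).

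Among introns, HMGCS1 had 128, 139 and 154 CPM in mock and 379.7, 393 and 402 in arsenite cytoplasm, a difference of 1.47 ± 0.14 (limma adjusted p 5.17e-06). INSIG1 introns had 6.33, 6.38 and 9.17 CPM in mock and 25.7, 26.7 and 33.5 in arsenite (difference 1.70 ± 0.24, limma adjusted p 2.05e-04). Both calls held without any library. FDFT1 introns rose from 13.9 ± 4.38 to 37.1 ± 7.94 CPM (SD, n = 3; difference 1.30 ± 0.24, limma adjusted p 0.00220), a call lost without cytoplasmic arsenite library 1 or 2 (0.0587 and 0.0835). SQLE introns rose by 0.97 and SREBF2 introns by 0.74 (limma adjusted p 0.0239 and 0.0278), each lost without any one of 5 of the 6 libraries (0.0551 to 0.187). SCD has only 2 intron peaks, whose sum differed by 0.23 (limma adjusted p 0.610).

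Against all sums tested, of which 6.7% were higher and 6.62% lower with arsenite, 5 and 2 of 21 sums of the 6 genes were called; without cytoplasmic arsenite library 1, 2 or 3 limma called 3, 3 and 4 in all. Of all intron sums 13.5% were higher (median 0.29), and of all 3'UTR sums 18.6% were lower (median -0.30). Within the introns of HMGCS1, the 58 peaks labelled CDS_Retained_intron went from 119 ± 4.69 to 359.7 ± 13.0 CPM and the 8 others from 21.4 ± 11.9 to 31.9 ± 2.90 (SD, n = 3). In INSIG1 the 5 peaks of that finer class went from 3.49 ± 0.663 to 18.1 ± 1.40 CPM and the 6 others from 3.80 ± 2.07 to 10.5 ± 4.27. These finer sums were not tested. In the same libraries the nuclear RNA NEAT1 was higher in arsenite than in mock cytoplasm (232 ± 42.2 against 125 ± 11.6 CPM; SD, n = 3), and its bearing on the intron rise and on the differences between fractions with arsenite was not tested.

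Of 193 single peaks tested in the cytoplasm, 10 were higher and 4 lower with arsenite, against 0.24% and 0.52% of all peaks. Among intron peaks 0.231% were higher, and among 3'UTR peaks 2.69% lower. Of the 10 higher peaks, 9 were HMGCS1 intron peaks and 1 lay in its 3'UTR. Of the 66 HMGCS1 intron peaks tested, 60 had a positive difference, with a median of 0.71. Peaks of one gene are not replicates, and the share of positive differences over all intron peaks is not given here. The intron peak at chr5:43311684-43311704 had 4.25, 6.11 and 10.5 CPM in mock and 25.6, 30.3 and 34.8 in arsenite (difference 1.86, limma adjusted p 0.0246). That at chr5:43298228-43298248 had 2.13, 3.06 and 6.33 against 16.5, 19.5 and 27.8 (difference 1.97, limma adjusted p 0.0273). Both lost their calls without any cytoplasmic mock library (0.131 to 0.245).

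The 4 lower peaks were 3 in the SCD and 1 in the FDFT1 3'UTR. The SCD peak at chr10:100361756-100361776, 3050 nt from the 3' end, had 104, 138 and 149.7 CPM in mock and 25.7, 26.0 and 28.4 in arsenite (difference -2.18 ± 0.20, limma adjusted p 0.00261; without cytoplasmic mock library 2 or 3, 0.0579 and 0.245). The leading SCD peak had 614, 792 and 861 against 275, 303 and 326 (difference -1.31 ± 0.14, limma adjusted p 0.00431). Near the 3' end, the SCD peak at chr10:100364702-100364722 had 18.1, 29.5 and 30.6 CPM in mock and 3.48, 4.55 and 9.39 in arsenite (difference -1.84, limma adjusted p 0.0390). The leading FDFT1 peak had at least 18.3 CPM in every mock and at most 7.96 in every arsenite library (difference -1.61, limma adjusted p 0.0378). The last 2 calls were lost without any cytoplasmic mock library (0.0800 to 0.274), and that of SCD also without cytoplasmic arsenite library 2. Of all peaks of the 6 genes limma called 2 without cytoplasmic mock library 1 and 0 without library 2 or 3, but 26 and 23 without cytoplasmic arsenite library 1 or 2.

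In the nuclear fraction arsenite raised the 3'UTR signal of HMGCS1, INSIG1 and SCD and the intron signal of HMGCS1, INSIG1 and FDFT1, and no sum of the 6 genes was called lower. HMGCS1 3'UTR signal went from 85.0, 93.6 and 97.6 CPM in mock to 253, 266 and 351 in arsenite nuclei (difference 1.62 ± 0.12, limma adjusted p 2.00e-06). INSIG1 3'UTR signal went from 8.69, 10.9 and 11.7 to 34.7, 37.6 and 38.4 CPM (difference 1.63 ± 0.20, limma adjusted p 1.34e-04). SCD 3'UTR signal went from 124, 127 and 142 to 191, 195 and 258 CPM (difference 0.70 ± 0.12, limma adjusted p 0.00232). The treatments do not overlap in any of these genes. The HMGCS1 call held without any library; INSIG1 lost it without nuclear arsenite library 3 (0.0538), and SCD without that library (0.077) or nuclear mock library 1 (0.0567).

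HMGCS1 introns had 190.2, 205 and 213 CPM in mock and 378, 379.5 and 417 in arsenite nuclei (difference 0.94 ± 0.08, limma adjusted p 6.08e-06, kept without any library). INSIG1 introns had 11.6, 12.7 and 17.5 against 44.8, 44.8 and 48.5 (difference 1.59 ± 0.20, limma adjusted p 1.26e-04, and 0.0617 without nuclear arsenite library 3). INSIG1 thus rose in both classes in the nucleus, by 1.63 in the 3'UTR and 1.59 in introns. FDFT1 introns rose by 0.77 (limma adjusted p 0.0336), a call lost without any one library (0.0588 to 0.13) and with each library centred on its median (0.0691). FDFT1, SREBF2 and SQLE 3'UTR signals differed by 0.45, 0.71 and 0.42 and did not pass (limma adjusted p 0.469, 0.383 and 0.643).

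Of all sums tested in the nucleus 4.48% were higher and 1.65% lower, against 6 and 0 of 21 sums of the 6 genes; without nuclear arsenite library 3 limma called 2. Among 3'UTRs 13.8% were higher (median 0.39), and among introns 0.979% (median -0.11). Of 185 single peaks, 4 were higher and 0 lower, where 0.152% of all peaks and 1.2% of 3'UTR peaks were higher. Each of the 13 HMGCS1 3'UTR peaks had a positive difference, as did 54 of its 66 intron peaks. Here too the peaks are of one gene and are not replicates. In the 3'UTR of HMGCS1 2 peaks were called higher. Its leading peak went from 53.1, 60.0 and 65.6 CPM to 159, 169.6 and 207 (difference 1.54 ± 0.14, limma adjusted p 0.00100). Its neighbour at chr5:43290221-43290241, 2751 nt from the 3' end, went from 2.73, 6.76 and 7.29 to 33.6, 44.2 and 59.3 (difference 2.63 ± 0.31, limma adjusted p 0.00491). Whether these 2 peaks differ in their change was not tested. The HMGCS1 intron peak at chr5:43302583-43302603 rose by 1.36 (limma adjusted p 0.0236) and the leading SCD peak by 0.76 (limma adjusted p 0.0497). These 4 calls were lost without nuclear mock library 1 or nuclear arsenite library 1 or 2, the SCD call without any one library, that of the HMGCS1 neighbour also without nuclear arsenite library 3, and that of the intron peak also without nuclear mock library 2 or 3 (0.0661 to 0.269). With the smaller pseudocount the SCD and intron peaks were not called (0.152 and 0.0559), and by edgeR the SCD peak was not (0.216). Without nuclear arsenite library 3 limma called 7 peaks, without nuclear mock library 2 or 3 it called 2, and without the others 0.

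**Figure D3:**
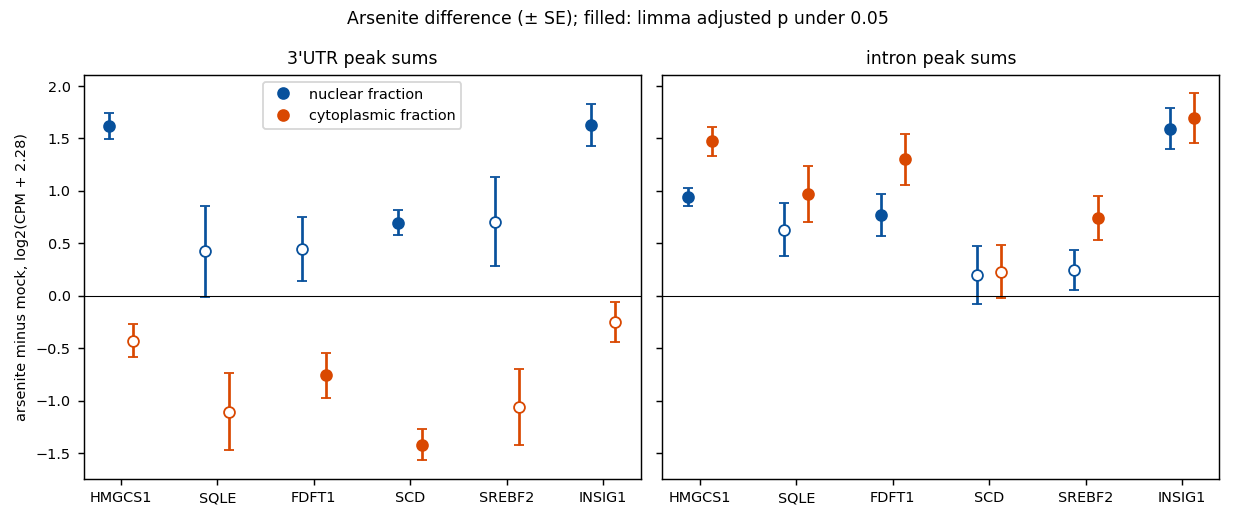
Arsenite minus mock difference on the log2(CPM + 2.28) scale for the 3'UTR and intron sums of the 6 genes (points, with the SE as bars; 3 libraries against 3), in the nuclear (blue) and cytoplasmic (orange) fractions. Filled points have a limma adjusted p under 0.05. For SCD 3'UTRs the points are 0.70 in the nucleus and -1.42 in the cytoplasm, while for INSIG1 introns both are positive (1.59 and 1.70).

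The arsenite difference itself differed between fractions for 5 of the 6 3'UTRs and for HMGCS1 introns. This was tested as the nuclear minus the cytoplasmic arsenite difference in one fit over the 12 fraction libraries, which are the same libraries as in the tests above. For 3'UTRs it was 2.12 ± 0.16 in SCD (limma adjusted p 4.55e-17), 2.04 ± 0.17 in HMGCS1 (2.37e-15) and 1.88 ± 0.31 in INSIG1 (3.04e-06), and these held without any library. It was 1.77 ± 0.53 in SREBF2 (limma adjusted p 0.0165) and 1.20 ± 0.39 in FDFT1 (0.0333). SREBF2 lost its call without any one of 7 of the 12 libraries (0.0544 to 0.109) and FDFT1 without any one of 9 (0.0504 to 0.118) and in edgeR on whole tags (0.0632). SQLE differed by 1.53 ± 0.56 and did not pass (limma adjusted p 0.0653). HMGCS1 introns differed by -0.53 ± 0.16 (limma adjusted p 0.0170): they rose more in the cytoplasm than in the nucleus. That call was lost without nuclear mock library 1, nuclear arsenite library 1 or 2 or cytoplasmic arsenite library 3 (0.0526 to 0.0642).

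Of all sums 7.05% had a positive and 3.99% a negative called difference of this kind, against 5 and 1 of 21 for the 6 genes. Of all 3'UTR sums 24.2% were positive (median 0.63). At single peaks 7 of 238 were called, all positive and all in 3'UTRs (4 in SCD, 2 in HMGCS1 and 1 in INSIG1), where 0.318% of all peaks and 2.46% of 3'UTR peaks were positive. At the leading HMGCS1 peak the difference was 2.13 ± 0.12 (limma adjusted p 5.22e-36, kept without any library) and at the leading SCD peak 2.07 (1.23e-49). At the SCD peak chr10:100361756-100361776 it was 2.12 (limma adjusted p 6.12e-05): this peak had 16.5 ± 3.27 CPM in mock and 15.8 ± 3.27 in arsenite nuclei (SD, n = 3), so the interaction there came with a nuclear difference of -0.06, unlike at the leading peak. The smaller SCD peaks near the 3' end differed by 2.43 and 2.20 (limma adjusted p 0.0107 and 0.0192), each lost without any one of 9 of the 12 libraries (0.0801 to 0.216). The INSIG1 peak, chr7:155310058-155310078, had 0 tags in mock nuclei. Its call (2.03, limma adjusted p 0.0394) was lost without any one library (0.0648 to 0.471) and with the larger pseudocount (0.0636). The HMGCS1 peak chr5:43290221-43290241 (2.02, limma adjusted p 9.11e-04) lost its call with the larger pseudocount (0.237). It also did so without nuclear arsenite library 1 or 3 or cytoplasmic arsenite library 2 or 3 (0.0527 to 0.119). Without any one of 7 of the 12 libraries (nuclear mock 1, nuclear arsenite 1 and 3, cytoplasmic mock 2 and 3, cytoplasmic arsenite 2 and 3) 3 or 4 peaks were called.

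Between the fractions of arsenite-treated cells 3 sums of the 6 genes were called. SCD 3'UTR signal was lower in the nucleus (191, 195 and 258 against 336, 360.3 and 388 CPM; difference -0.75 ± 0.10, limma adjusted p 3.01e-05). The groups did not overlap, but the call was lost without cytoplasmic arsenite library 2 (0.108) or nuclear arsenite library 3 (0.111). HMGCS1 3'UTR signal differed by -0.39 ± 0.10 (limma adjusted p 0.0288; without any one of 5 of the 6 libraries, 0.135 to 0.404; with the smaller pseudocount 0.0671, and in the fit over all 12 fraction libraries 0.0770). INSIG1 3'UTR signal overlapped between the fractions, at 34.7 to 38.4 CPM in the nucleus and 34.7 to 39.2 in the cytoplasm. INSIG1 introns were higher in the nucleus by 0.65 ± 0.16 (limma adjusted p 0.0187; lost without any one library, 0.0651 to 0.183, and in the fit over all 12 fraction libraries, 0.128). That difference lay in the 5 peaks labelled CDS_Retained_intron (36.2 ± 1.51 against 18.1 ± 1.40 CPM), while the 6 others had 9.89 ± 1.69 and 10.5 ± 4.27 (SD, n = 3; not tested). Of all sums 1.62% were higher and 3.38% lower, against 1 and 2 of 21 for the 6 genes. Among 3'UTR sums 9.89% were lower. Of 212 single peaks 1 was called lower, the leading SCD peak (158, 163 and 216 against 275, 303 and 326 CPM; difference -0.76 ± 0.11, limma adjusted p 0.00501), where 0.147% of all peaks were lower. With 1 library left out it kept that call only without nuclear arsenite library 2 (otherwise 0.167 to 0.294), and it was not called by edgeR (0.183) or with the smaller pseudocount (0.0784).

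The share of a gene's tags that fell in its 3'UTR followed these shifts. For HMGCS1 it was 30.9% ± 0.376 in mock nuclei and 77.9% ± 5.17 in mock cytoplasm, and 42.2% ± 5.14 and 48.8% ± 3.16 with arsenite (SD, n = 3 each). For INSIG1 it was 43.0% ± 3.08 and 85.8% ± 1.90 in mock, and 44.5% ± 2.45 and 56.1% ± 2.05 with arsenite. In mock cells the fractions were therefore far apart for both genes, and with arsenite HMGCS1's highest nuclear library (47.8%) lay above its lowest cytoplasmic one (46.7%). For FDFT1 it was 62.6% ± 10.3 in mock and 26.6% ± 5.72 in arsenite cytoplasm, with no overlap. For SCD the share was between 91.8% and 99.0% in every fraction library, so its changes are almost wholly those of its 3'UTR. Over all peaks the 3'UTR share was 11.7% in mock nuclei, 42.3% in mock cytoplasm, and 19.2% and 24.5% with arsenite. These shares were not tested.

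In the APEX lines most signal of the 6 genes again came from HMGCS1 and SCD: of 1640 tags in the 29 enriched libraries they held 670 and 843, and each other gene 30 to 34. The tests here are on sums, with the library set as a covariate. One tag in an enriched library is worth 1.06 to 214.5 CPM, so single libraries at 0 say little. In 3 pairs of enriched libraries of set JL0388 the tags per peak did not differ beyond sampling noise (chi-square p 0.063 over 33 peaks for APEX-NES arsenite libraries 1 and 2, 0.574 over 14 for APEX-NES mock, and 0.0654 over 56 for APEX-NLS arsenite), while the other pair of each group did; each call below is also given with such a pair counted as 1 sample, and no further sum of the 6 genes was called in those fits.

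HMGCS1 introns were called higher in APEX-NLS than in APEX-NES enriched libraries in both treatments, but the mock call supports nothing. In mock cells they had 24.6, 29.3, 34.2 and 64.1 CPM (45 tags) against 0, 0, 0 and 8.74 (1 tag), a difference of 3.48 ± 0.86 (limma adjusted p 0.0217). This sum met the filter of the test through the APEX-NLS libraries alone. It was not called by edgeR (edgeR adjusted p 0.106) or with the larger pseudocount (limma adjusted p 0.0547). With arsenite they had 24.8, 26.1, 245 and 249.7 CPM (95 tags) against 2.07, 5.31, 13.1 and 52.3 (7 tags), a difference of 2.69 ± 0.59 (limma adjusted p 0.0209). The arsenite groups overlap, and the 2 highest values of each are the libraries of set JL0388. With the pairs counted as 1 sample the mock difference was 3.29 (limma adjusted p 0.100) and the arsenite difference 2.46 (0.0382). By pooled tags the ratio was 10.2 in mock (95% exact interval 1.74 to 413) and 13.5 with arsenite (6.33 to 34.6), covering counting error only.

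FDFT1 introns had 8 tags against 0 in mock and 9 against 0 with arsenite. They entered the tests only through the APEX-NLS libraries, so their calls (difference 1.90, limma adjusted p 0.0217, in mock and 2.37, 0.0469, with arsenite) support nothing, and with no filter on low values neither was made (0.436 and 0.193). With no filter the HMGCS1 intron call in mock was not made either (0.0967). The arsenite tags make at least 2.99-fold higher over the floor of 3 tags in the group, and the mock tags allow no such bound. With pairs counted as 1 sample neither FDFT1 difference passed (0.154 and 0.0824). Of all sums 20.8% were higher in mock and 13.8% with arsenite, with medians over all sums of 1.07 and 0.91; among introns the shares were 26.9% and 22.5%. Against these, 2 of 6 and 2 of 5 sums of the 6 genes were called, FDFT1 introns among them in both. Neither of the 2 mock calls supports anything, as both entered through APEX-NLS libraries. With each library centred on its median none of the 4 was called (adjusted p 0.057 for both in mock; with arsenite the difference was 1.81 for HMGCS1, adjusted p 0.112, and 1.49 for FDFT1, 0.420). In mock the HMGCS1 call was lost without APEX-NES library 1, 2 or 4 or APEX-NLS library 1 (0.0509 to 0.0925) and the FDFT1 call without any APEX-NES library (0.0974 to 0.174). With arsenite the HMGCS1 call was lost without any APEX-NLS library (0.0657 to 0.103) and the FDFT1 call without any of the 8 libraries (0.0657 to 0.188). HMGCS1 and SCD 3'UTR sums were not called in either treatment.

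SCD 3'UTR signal was higher in APEX-G3BP1 than in APEX-NES enriched libraries of arsenite-treated cells. It ranged from 76.1 to 998 CPM with a median of 292 in 7 APEX-G3BP1 libraries (437 tags), and was 19.5, 35.2, 118 and 157 CPM in the APEX-NES libraries (43 tags). The test used only library sets that hold both lines, which leaves out APEX-G3BP1 libraries 1, 2 and 3, of set JL0361. Libraries 4, 5, 6 and 7 had 688, 998, 213 and 433 CPM. The difference was 3.00 ± 0.55 (limma adjusted p 0.00476), and 3.08 (limma adjusted p 0.0211) with the pair counted as 1 sample. Pooled ratios here take all 7 APEX-G3BP1 libraries, and so a set that APEX-NES lacks. For SCD the pooled ratio of tags was 8.19 (95% exact interval 5.98 to 11.5, for counting error only, not the spread of these libraries). In input libraries of arsenite-treated cells, which had no capture, the SCD 3'UTR also had 177 to 388 CPM in 5 APEX-G3BP1 libraries against 97.9 and 131 in APEX-NES, with no overlap. How far that difference between the lines bears on the enriched libraries was not tested. One APEX-G3BP1 library, library 1 with 1 SCD tag, lies within the APEX-NES range, and it was not in the test. The call was lost without APEX-G3BP1 library 5 or 7 (0.0735 to 0.121), when libraries were scaled to their tags in peaks (difference 1.94, adjusted p 0.0831) and when they were centred on the median (1.52, 0.0612). HMGCS1 3'UTR signal had a pooled ratio of 8.30 (5.66 to 12.6, counting error only; 299 against 29 tags), but did not pass over libraries (difference 1.98 ± 0.67, limma adjusted p 0.0779; 1.95 and 0.178 with the pair counted as 1 sample). Of all sums 3.12% were higher and of all 3'UTR sums 5.52%, against 1 of 3 for the 6 genes, and the median over all sums was 0.92. In mock cells neither of 2 tested sums was called by limma (1 at an unadjusted p under 0.05, by edgeR 0), and 0% of the 1547 sums of all genes were (66 at an unadjusted p under 0.05). SCD 3'UTRs had a difference of 2.41 (limma adjusted p 0.262) and a range of 0 to 644 CPM over 6 APEX-G3BP1 libraries. Of these, libraries 1 and 2, of set JL0361, were not in the test, and libraries 3 to 6 had 107 to 644 CPM.

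Arsenite and mock libraries were also compared within each line. In APEX-G3BP1 enriched libraries the HMGCS1 3'UTR had a median of 11.6 CPM in mock, where 3 of 6 libraries had no tag and the highest 74.8, and of 178 CPM with arsenite, with a range of 59.8 to 245. The difference of 3.79 ± 1.11 did not pass (limma adjusted p 0.174), and the groups overlap. SCD 3'UTRs differed by 1.62 (limma adjusted p 0.327). In APEX-NLS enriched libraries the HMGCS1 3'UTR had 0, 11.3, 19.7 and 23.0 CPM in mock and 26.1, 59.2, 69.3 and 84.7 with arsenite, with no overlap, but a difference of 2.32 did not pass (limma adjusted p 0.571). In APEX-NES enriched libraries the values were 0, 8.74, 52.9 and 59.6 CPM in mock and 22.8, 23.0, 26.2 and 78.4 with arsenite, which overlap. Across the input libraries of the 3 lines, HMGCS1 3'UTR signal ranged from 0 to 114 CPM in mock and from 32.6 to 352 with arsenite (difference 2.09 ± 0.65 with line and library set as covariates, limma adjusted p 0.461), and SCD 3'UTR signal from 44.5 to 557 and from 97.9 to 388 (difference 0.33, 0.761).

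None of these 4 tests called a sum of the 6 genes by limma, where 0% of all sums were called. At an unadjusted p under 0.05 the members had 2 of 7 in APEX-NLS, 0 of 3 in APEX-NES, 2 of 4 in APEX-G3BP1 and 3 of 14 in input libraries, where all sums had 342 of 5238, 105 of 1554, 415 of 2560 and 1175 of 11316. On whole tags edgeR called 1, 0, 1 and 5 of them, all higher with arsenite, where it called 0.0382%, 0%, 3.75% and 6.15% of all sums higher. How far the depth of the libraries and the library sets bear on these differences was not tested.

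**Figure D4:**
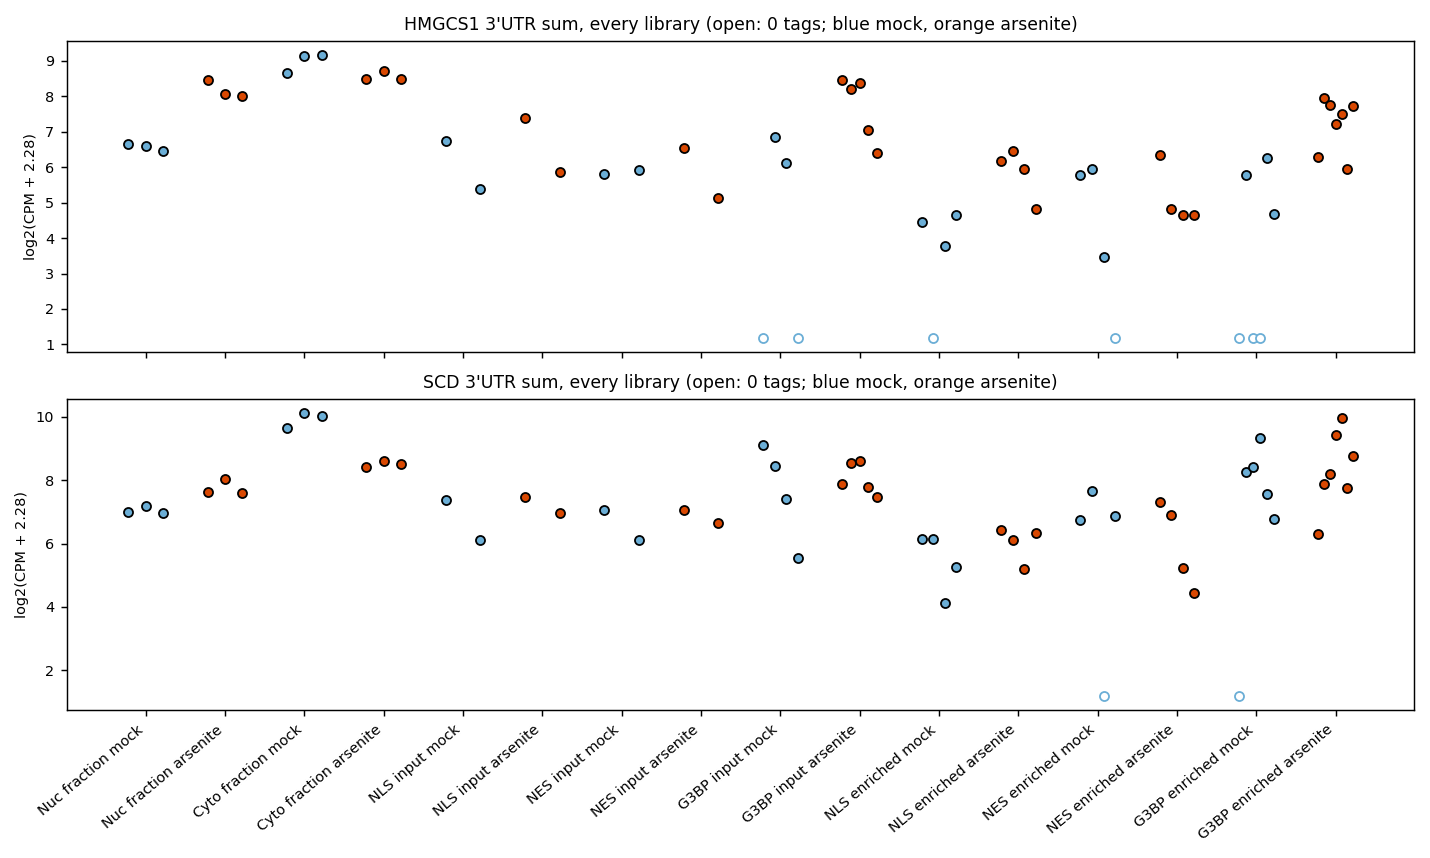
Summed 3'UTR signal of HMGCS1 and of SCD on the log2(CPM + 2.28) scale in each of the 58 libraries (dots), by the 16 groups of fraction or line, capture and treatment; open dots are libraries with 0 tags. In the fraction groups, libraries of a group lie close together, while in the input and enriched groups they spread widely: for SCD the 7 enriched APEX-G3BP1 arsenite libraries run from 76.1 to 998 CPM.

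To place the 6 genes among others of their pathways, 34 further genes were listed: 18 of cholesterol synthesis, 11 of fatty acid synthesis and desaturation, and 5 of SREBP control. In mock cells 15 of 22 tested 3'UTR sums of these genes were lower in the nuclear fraction and 0 higher (median -1.14; over all 3'UTRs -0.98, with 49.4% lower), and 9 of 29 intron sums were higher and 0 lower (over all introns 25.1% higher). The largest differences were those of ELOVL5, an elongase of polyunsaturated fatty acids (29.6 CPM nuclear and 248 cytoplasmic, difference -2.98, limma adjusted p 8.60e-08), and CYP51A1, the lanosterol demethylase (13.9 and 90.2 CPM, -2.52, 7.64e-07). ACLY, which makes cytosolic acetyl-CoA, and the desaturase FADS2 followed with -2.38 and -2.36.

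In arsenite cytoplasm 8 of 23 listed 3'UTR sums fell and 0 rose (median -0.57; over all 3'UTRs -0.30, with 18.6% lower), while 12 of 29 intron sums rose and 0 fell (median 0.66; over all introns 0.29, with 13.5% higher). CYP51A1 fell from 90.2 to 26.6 CPM (difference -1.72, limma adjusted p 1.16e-04) and ELOVL5 from 248 to 86.4 (-1.49, 1.66e-05). MBTPS1, a protease that cuts SREBP precursors, fell from 7.66 to 1.51 CPM (-1.39, limma adjusted p 0.00947), and SC5D, a late enzyme of sterol synthesis, from 15.6 to 5.69 (-1.21, 0.0120). The MBTPS1 and SC5D calls were lost without any cytoplasmic arsenite library or cytoplasmic mock library 2, and that of SC5D also without cytoplasmic mock library 3 (0.0507 to 0.104).

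In arsenite nuclei 2 of 21 listed 3'UTR sums rose, both of fatty acid genes (median 0.31; over all 3'UTRs 0.39, with 13.8% higher): FADS2 from 7.55 to 26.0 CPM (difference 1.54, limma adjusted p 7.28e-04) and ACLY from 15.0 to 30.6 (0.93, 0.00948). FADS2 lost its call without nuclear arsenite library 3 (0.0617) and ACLY without any nuclear arsenite library (0.0686 to 0.0849). Of the listed intron sums 5 of 30 rose in arsenite nuclei and 0 fell (median 0.15; over all introns -0.11, with 0.979% higher).

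The nuclear minus cytoplasmic arsenite difference was positive in 8 of 25 listed 3'UTRs and negative in 0 (median 0.83; over all 3'UTRs 0.63, with 24.2% positive). It was 2.01 in FADS2 (limma adjusted p 1.86e-06), 1.85 in ACLY (9.84e-07), 1.46 in SC5D (0.0351, lost without any one of 9 of the 12 libraries, 0.0562 to 0.144, with the smaller pseudocount, 0.0631, and in edgeR, 0.103) and 1.41 in MSMO1, a sterol methyl oxidase (2.23e-05). Among listed introns it was negative in 6 of 30 and positive in 0 (median -0.36; over all introns -0.36, with 9.37% negative), and 5 of the 6 were fatty acid genes. With arsenite 4 of 23 listed 3'UTRs were lower in the nucleus (median -0.22; over all 3'UTRs -0.17, with 9.89% lower). They were ELOVL5 (20.8 against 86.4 CPM, difference -1.94, limma adjusted p 9.07e-09), CYP51A1 (6.62 against 26.6, -1.68), the desaturase FADS1 (13.4 against 30.1, -1.04) and MSMO1 (51.9 against 85.2, -0.73). Without cytoplasmic arsenite library 2 or nuclear arsenite library 3 the last 3 were not called (0.0925 to 0.311), and MSMO1 not without cytoplasmic arsenite library 1 or 3 or nuclear arsenite library 2 either.

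**Figure D5:**
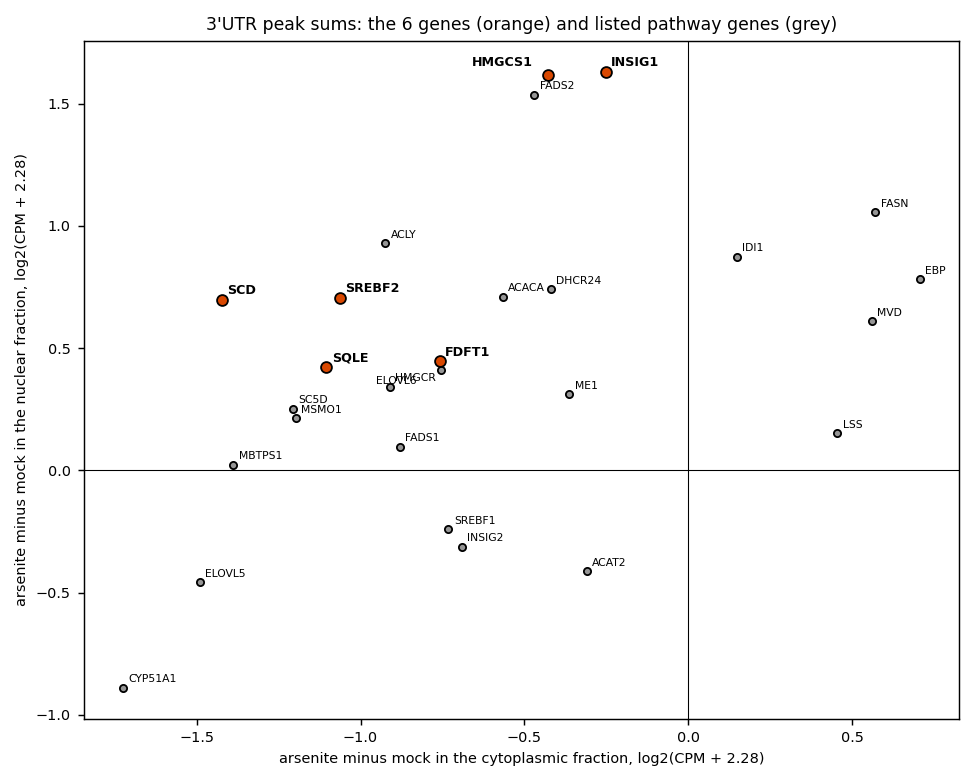
Arsenite minus mock difference on the log2(CPM + 2.28) scale of summed 3'UTR signal in the cytoplasmic (x axis) against the nuclear fraction (y axis) for 27 genes, the 6 described here and 21 of the listed pathway genes tested in both. The 2 axes use different libraries. HMGCS1 (-0.43, 1.62) and INSIG1 (-0.25, 1.63) lie highest, and CYP51A1, ELOVL5 and SCD (-1.42, 0.70) lie farthest to the left.

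The 3'UTR sums of the 6 genes did not move as one over the 12 fraction libraries. On the log2 scale HMGCS1 and INSIG1 were most alike (Pearson r 0.972), followed by SCD and FDFT1 (0.912) and HMGCS1 and SCD (0.861), and INSIG1 and SQLE were least alike (0.480). These correlations describe 12 libraries of 4 groups from one library set, so they follow the group means, and those of SQLE and SREBF2 rest on few tags. Among about 1031 genes whose 3'UTR sums averaged at least 20 CPM, the profiles most like HMGCS1 were those of IGF2BP1 (r 0.994) and DDX3X (0.994). Those most like INSIG1 were GATAD2A (0.994) and TRIM71 (0.989), and those most like SCD were GLUD1 (0.990) and WSB2 (0.986). GLUD1 had 23.6 CPM in mock nuclei, 394 in mock cytoplasm, 53.8 in arsenite nuclei and 119 in arsenite cytoplasm. FDFT1 was most like PRLR (0.970) and RRS1 (0.967). SQLE (SLC5A3, 0.862; PDZD8, 0.854) and SREBF2 (BUB3, 0.857; PHACTR4, 0.818) had no neighbour as close.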

How the data were processed

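In the deposited table each value is a signal, the CLIP tags of one library in one peak over a total of that library; this reading is from the values, which gave whole tags for 100% of values (tolerance 0.1 tags). Per the submitters' processing notes the tools were Bowtie2, SAMtools, bedtools and HOMER and the build GRCh38.p14; their roles are not given in the sources used here. Annotation and gene names are the table's, and whether its coordinates count from 0 or 1 is not stated. Of 395471 lines, 8257 repeats were dropped.

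The table also holds a score per peak and further columns, which the authors deposited, which the sources used here do not explain and which were not used.

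From these, tags per 1000000 (CPM) were summed per gene and class (30217 sums). A peak or sum was tested if it had tags in a number of libraries no lower than the size of the smaller group, over the whole table, with limma 3.58.1 (lmFit, eBayes with trend; R 4.3.3) on log2(CPM + 2.28), with a pseudocount equal to the median, taken across libraries, of each library's smallest value above 0; such fold changes understate changes of low genes. P-values are two-sided and were adjusted by Benjamini-Hochberg, with calls at 0.05. Tests of enriched and input libraries had the library set (and line) as covariates. Tests of APEX-G3BP1 against APEX-NES used only library sets that hold both lines. Library sets are the prefixes of the sample descriptions. Alternatives were edgeR 4.0.16 on the recovered tags, other pseudocounts, filters and scalings, a replicate block and leaving out each library. Scripts used Python 3.11.15 and were tested on simulated data. There, 4-fold changes were set in features with most signal, with a fixed spread. Between mock fractions limma recovered 200 of 200 sums but 41 of 200 peaks. It recovered 5 of 194 sums for APEX-NLS against APEX-NES in mock and 2 of 158 for APEX-G3BP1 against APEX-NES with arsenite. For arsenite in input it recovered 85 of 200. Sums not called in the APEX lines therefore say little.

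The 6 genes and all lists were chosen with earlier results of these data known. Named peaks are each gene's highest on average over the fraction libraries and, per fraction test, up to 6 called peaks with the largest difference, at most 2 per gene, with other called peaks counted; listed pathway genes are named where called, at most 4 per direction and test. Peaks named beyond the rule were chosen after their values were seen. No sequence is printed.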

Additional observations from a re-analysis of the deposited data

Results flagged for a closer look

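In groups of 4 to 10 libraries, the 3'UTR and intron sums of HMGCS1 and INSIG1, the SCD 3'UTR sum and the FDFT1 intron sum gave 41 combinations of a sum and a group with values that vary, of which 10 held a library far from its group. For values that vary smoothly, chance alone flags about 1 in 20 groups. A group with tags in only 1 library is always flagged, so the 10 flags cannot be set against that rate. The flags rest on 1 to 5 tags each. HMGCS1 3'UTR signal was 78.4 CPM (3 tags) in APEX-NES enriched arsenite library 1, where the next library had 26.2. HMGCS1 intron signal was 8.74 CPM (1 tag) in APEX-NES enriched mock library 3, and 0 in the others. INSIG1 3'UTR signal stood apart at 6.53 CPM (5 tags) in APEX-G3BP1 input mock library 3, 2.09 CPM (1 tag) in APEX-NLS enriched mock library 4, 13.9 CPM (1 tag) in APEX-NLS enriched arsenite library 1 and 2.12 CPM (2 tags) in APEX-G3BP1 enriched mock library 6, with 0 in the other libraries of each group. INSIG1 intron signal did so at 2.12 CPM (2 tags) in the same APEX-G3BP1 enriched mock library 6, with 0 in the others, and at 11.3 CPM (1 tag) in APEX-G3BP1 enriched arsenite library 4, where the next had 1.91. FDFT1 intron signal did so at 44.5 CPM (1 tag) in APEX-G3BP1 input mock library 4, where the next had 5.23, and at 2.99 CPM (1 tag) in APEX-G3BP1 enriched mock library 5, where the next had 1.06.

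The arsenite difference differed between the fractions, by limma's interaction term over 12 libraries. The nuclear minus the cytoplasmic difference on the log2 scale was 2.12 for the SCD, 2.04 for the HMGCS1, 1.88 for the INSIG1, 1.77 for the SREBF2 and 1.20 for the FDFT1 3'UTR sum, and -0.53 for the HMGCS1 intron sum.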

How the results depend on the processing

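The 3'UTR differences of SCD, HMGCS1, INSIG1 and FDFT1 between mock fractions, those of HMGCS1 and INSIG1 introns and the SCD 3'UTR in arsenite cytoplasm, those of HMGCS1 in arsenite nuclei, and the interactions of SCD, HMGCS1 and INSIG1 3'UTRs kept their direction and call under every alternative run. Counts of called features of the 6 genes moved more, and the cause was not tested unless the alternative tests fewer features. For single peaks in mock (17), testing only features non-zero in every library of a group gave 35 and a fit of all 12 fraction libraries 29. In arsenite (1) the smaller pseudocount gave 0, no filter 3, the strict filter 15, centring 3, edgeR 4 (not the leading SCD peak) and the joint fit 3. In arsenite cytoplasm (14) they gave 23 with the smaller pseudocount, 53 with the strict filter, 35 with centring, 22 with edgeR and 31 with the joint fit. In arsenite nuclei (4) they gave 2 with the smaller pseudocount, 7 with no filter, 28 with the strict filter, 9 with centring, 7 with edgeR (not the leading SCD peak) and 15 with the joint fit. For the interaction (7) the strict filter gave 17. For sums, the joint fit gave 1 between arsenite fractions (3).

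For APEX-NLS against APEX-NES in mock (2) the larger pseudocount, no filter, centring, edgeR and averaging of like pairs gave 0. With arsenite (2) the larger pseudocount, no filter, edgeR, the replicate block and averaging gave 1, and centring 0. For APEX-G3BP1 against APEX-NES in mock (0), no filter and leaving out libraries under 2000 tags, a choice made after seeing the data, gave 1; with arsenite (1) the larger pseudocount and the strict filter gave 2, and scaling to tags in peaks and centring 0. Arsenite against mock (0) gave 1 in APEX-NLS with no filter and with edgeR, 1 in APEX-G3BP1 with the strict filter and with edgeR, and 5 in input with edgeR. Centring could not be fitted for APEX-G3BP1 arsenite against mock.

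Without 1 library in turn, called peaks ranged from 0 to 19 (mock), 0 to 1 (arsenite), 0 to 26 (cytoplasm), 0 to 7 (nucleus) and 3 to 7 (interaction), and called sums from 4 to 7, 0 to 2, 3 to 6, 2 to 5 and 4 to 7. In the APEX lines they ranged from 0 to 2 for APEX-NLS against APEX-NES in mock and 0 to 1 with arsenite, 0 to 2 for APEX-G3BP1 against APEX-NES with arsenite, and 0 to 1 for arsenite in APEX-NLS, and were 0 in the others.

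In the fraction tests directions turned only for sums that were not called. HMGCS1 introns between arsenite fractions were 0.0606 when scaled to tags in peaks and 0.0371 when centred, and -0.0479 to 0.0229 without 1 library. The SQLE 3'UTR there was -0.0186 with the smaller pseudocount and -0.30 to 0.34 without 1 library, and the INSIG1 3'UTR -0.0163 to 0.0679. The interaction of INSIG1 introns was 0.0652 with the larger pseudocount and -0.24 to 0.0463 without 1 library, and that of SCD introns -0.23 to 0.0729. FDFT1 introns between mock fractions ranged from -0.10 to 0.30. In the APEX tests 10 of 44 sums, none of them called, turned under 1 or more alternatives, among them the HMGCS1 3'UTR for APEX-G3BP1 against APEX-NES in mock (-0.77, turned to between 0.016 and 3.15) and SREBF2 introns for APEX-NLS against APEX-NES in mock (0.039, turned to between -0.52 and -0.030).

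Over all tested features same-numbered libraries showed little shared deviation (correlations of -0.00979 to 0.0306 in the fraction tests). Counting noise at features with few tags could hide one, so this cannot decide whether the numbers pair the libraries. With the replicate number as a block, 17, 1, 18, 4 and 9 peaks and 8, 3, 9, 6 and 6 sums were called in the 5 fraction tests, the additional sums being SQLE and SREBF2 3'UTRs in arsenite cytoplasm (adjusted p 0.0356 and 0.0382). Depth limits the enriched and input libraries most: 16 of 58 libraries had under 10000 tags in peaks.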
